A study of Mus musculus with 8 samples.

Results

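The genes described are 10 members of the AP-1 and immediate early group: Fos, Fosb, Fosl1, Fosl2, Jun, Junb, Jund, Egr1, Ier3 and Atf3. They were chosen by symbol, taking every transcript cluster (a set of probes for 1 gene region) whose platform annotation gives a member symbol, alone or with others. This found 11 of the 41345 clusters on the array. Of these, 10 carry a single symbol, with 2 clusters for Jund, and 1 carries the symbols of both Ccdc85b and Fosl1. RNA came from AML12 cells, a mouse hepatocyte line, measured on Affymetrix mouse gene arrays. One set of 4 arrays is from cells with stable expression of the zinc finger gene Zfp125, and the other 4, called EV, from cells with an empty vector. Both groups were selected with G418 and then kept in control medium, so neither received a stimulus named in the labels. Nothing in the labels tells whether the 4 samples came from separate cultures or whether a line is 1 clone, so the replicate spread behind the p-values may be only technical.

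AP-1 is a dimer of leucine zipper proteins. Fos proteins need a Jun partner to bind DNA, whereas Jun proteins can also pair with each other, and the dimer binds the sequence TGANTCA and the related TGACNTCA. Immediate early genes are switched on within minutes of growth factor, serum or stress signals, through MAP kinases and factors already present in the cell, and many of their mRNAs decay quickly. In liver, Jun is known for its part in hepatocyte proliferation and survival during development and regeneration, and several of these genes are induced after partial hepatectomy.

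The stretches just upstream of the start site are shown for Fos and Jun, the founding genes of the dimer, and for Junb and Atf3, whose groups of arrays did not overlap. Each is the 150 bases before the annotated start on the gene's own strand, from RefSeq, build GRCm38.p6, and capitals mark any TGANTCA, TGACNTCA or TGACG, the core of a cyclic AMP response element, on either strand.
Fos, chr12:85473740-85473889, plus strand: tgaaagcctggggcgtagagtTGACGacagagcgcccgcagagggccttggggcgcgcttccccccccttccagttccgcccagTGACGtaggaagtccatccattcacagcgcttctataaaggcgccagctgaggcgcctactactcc
Jun, chr4:95052223-95052372, minus strand: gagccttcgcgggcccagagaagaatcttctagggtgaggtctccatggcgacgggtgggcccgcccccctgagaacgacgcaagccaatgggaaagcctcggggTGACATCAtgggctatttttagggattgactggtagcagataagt
Junb, chr8:84978749-84978898, minus strand: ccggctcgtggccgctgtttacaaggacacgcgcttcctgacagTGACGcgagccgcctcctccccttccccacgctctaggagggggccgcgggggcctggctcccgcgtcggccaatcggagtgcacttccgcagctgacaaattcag
Atf3, chr1:191183334-191183483, minus strand: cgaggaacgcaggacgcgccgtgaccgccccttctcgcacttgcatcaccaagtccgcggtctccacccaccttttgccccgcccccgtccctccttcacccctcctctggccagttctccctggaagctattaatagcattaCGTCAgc
The promoter table held 8 of the 10 members; Egr1 and Fosl1 were not among them. In windows of 300 bases around the start (250 before, 50 after), TGACNTCA was found in 1 of the 8, Jun, and in 8.83% of the 32851 promoters of the table. TGANTCA was found in 0 of the 8 and in 7.81% of all promoters. TGACG lay in 4 of the 8 (Fos, Fosb, Junb and Atf3) and in 20.8% of all. GGGCGG, also searched but not marked, lay in 6 of the 8 and in 35.7% of all. The CArG box, which serum response factor binds, was found in 0 of the 8 windows and in 1.63% of all. Sequence more than 250 bases before the start was not searched, so this count does not tell whether these genes have such sites. In Jun the match begins 45 bases before the start, in Atf3 7 bases before it, and in Fos the nearer of 2 matches begins 66 bases before it. These matches describe the letters in the windows only.

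None of the 9 members with a cluster of their own passed the test between Zfp125 and EV cells, and the cluster shared by Fosl1 and Ccdc85b fell by 0.93 ± 0.11 (SE) on the log2 scale. Genes with an adjusted p under 0.05 were called, using limma's test with Benjamini-Hochberg adjustment over all 22180 genes that have a cluster of their own. The background share of called genes was 1.08% (0.446% higher and 0.636% lower), and the members' count of 0 of 9 is near it. Of the 9, 2, Egr1 and Atf3, had an unadjusted p under 0.05, where the share over all genes was 10.9%. Means were lower in Zfp125 cells for 6 of the 9 and higher for 3. The median change of the 9 was -0.11, beside -0.00268 over all genes, of which 50.8% had a lower mean. Groups of arrays did not overlap for 3 of the 9, Egr1, Junb and Atf3, against 7.29% of all genes. Throughout, levels are the deposited log2 values, errors of means are SDs, errors of changes are standard errors, n = 4 arrays in each group, and changes are Zfp125 minus EV.

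**Figure D1:**
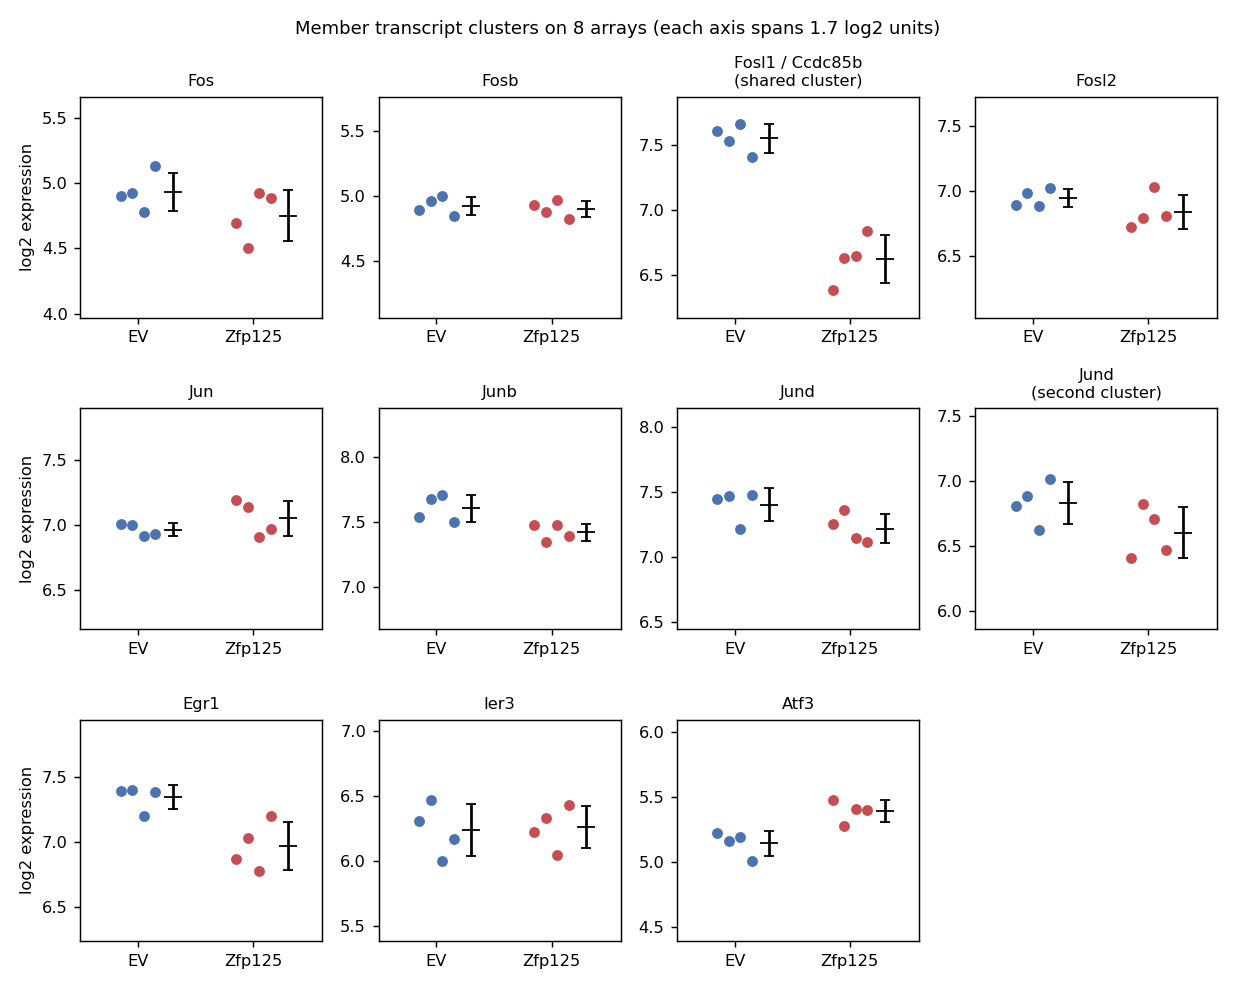
Log2 expression of the 11 member clusters on each array, EV in blue and Zfp125 in red, in replicate order from left to right, with the group mean and SD in black. Each axis spans the same range, and only the shared Fosl1 and Ccdc85b cluster shows a wide gap, from 7.41 as the lowest EV array to 6.84 as the highest Zfp125 array.

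The Fos family supplies the partners of Jun. Fos, the first of them to appear after a stimulus, read 4.90, 4.92, 4.78 and 5.13 on EV arrays 1 to 4 and 4.70, 4.50, 4.93 and 4.89 on Zfp125 arrays 1 to 4. The groups overlapped, with Zfp125 replicate 2 the lowest array. The change was -0.18 ± 0.11 (limma, adjusted p = 0.611). Fosb, a Fos relative best known from neurons, lay between 4.84 and 5.0 on EV arrays and between 4.82 and 4.96 on Zfp125 arrays, with a change of -0.025 ± 0.086 (adjusted p = 0.958). Fosl2 encodes Fra-2, which lacks the strong activation domain of Fos. It read 6.89, 6.98, 6.88 and 7.02 in EV cells and 6.72, 6.79, 7.03 and 6.81 in Zfp125 cells. Of its Zfp125 arrays 3 lay below every EV array and replicate 3 lay above all of them, and the change was -0.11 ± 0.09 (adjusted p = 0.739).

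Fosl1 encodes Fra-1, which, like Fra-2, lacks the strong activation domain and is known to accumulate under sustained MAP kinase signalling. Its cluster carries the symbol of Ccdc85b too, the neighbouring gene in RefSeq order, which encodes a coiled-coil protein, so the probes' signal cannot be given to Fosl1 alone. The shared cluster read 7.61, 7.53, 7.66 and 7.41 on EV arrays 1 to 4 and 6.39, 6.63, 6.64 and 6.84 on Zfp125 arrays 1 to 4. Every Zfp125 array lay below every EV array. The mean was 7.55 ± 0.11 in EV cells and 6.63 ± 0.19 in Zfp125 cells, a 1.90-fold lower level with a 95% interval of -1.18 to -0.68 for the change (limma over all 41345 clusters, adjusted p = 0.0191). In that fit 61 clusters were called, 0.148% of the total, and 0.123% were called lower; the shared cluster ranked at 28 of all clusters by p. The call ended in 6 of the 8 fits that left out 1 array, all but those without replicate 4 of either group (adjusted p of 0.024 to 0.0844 over the 8). It also ended without variance moderation (0.0822) and with the replicate number as a block (0.15). Among clusters that carry a symbol, a set chosen after seeing the data, the adjusted p was 8.08e-04, and it stayed between 8.09e-04 and 0.0055 when any 1 array was left out.

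Ccdc85b also has a cluster of its own. It read 5.74, 5.66, 5.999 and 5.76 in EV cells and 5.41, 5.81, 5.61 and 5.93 in Zfp125 cells. The groups overlapped, and the change was -0.10 ± 0.12 (limma, adjusted p = 0.836). The shared cluster minus Ccdc85b's own cluster was 1.76 ± 0.12 (log2) in EV cells and 0.93 ± 0.09 in Zfp125 cells, a shift of -0.83. All 4 Zfp125 arrays were lower than all 4 EV arrays in this difference, which was looked at after both clusters' values were seen and is given as a description. The next genes on either side did not pass the test: Drap1 had a change of 0.042 ± 0.089 and AI837181 of 0.11 ± 0.10 on the side of Fosl1, and Fibp of 0.081 ± 0.085 and Ctsw of 0.021 ± 0.118 on the side of Ccdc85b (adjusted p of 0.737 to 0.976).

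**Figure D2:**
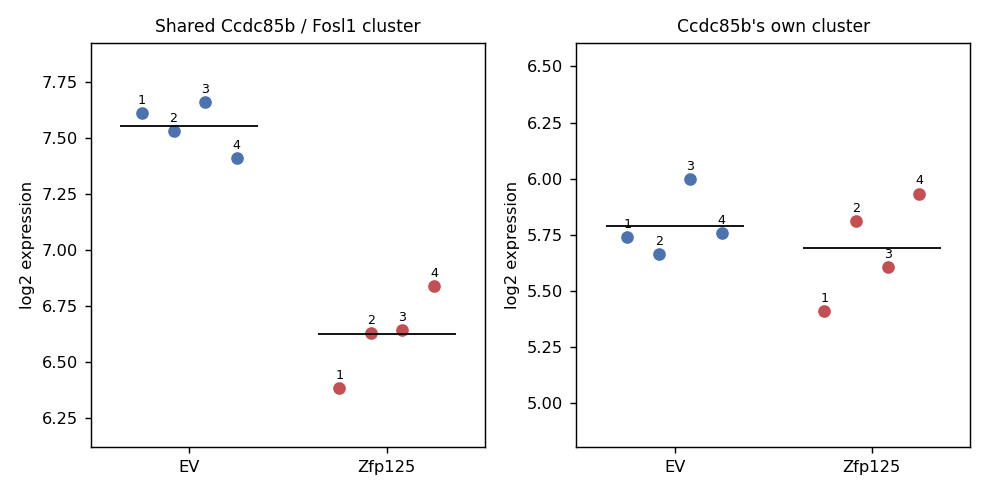
Log2 expression of the cluster that carries the symbols of Ccdc85b and Fosl1 (left) and of Ccdc85b's own cluster (right), with replicate numbers and group means as lines; both axes span the same range. On the left the Zfp125 arrays lie between 6.39 and 6.84 and the EV arrays between 7.41 and 7.66, while on the right the groups overlap.

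The Jun family forms the other side of the dimer. Jun read 7.01, 6.9985, 6.91 and 6.93 in EV cells and 7.19, 7.14, 6.90 and 6.96 in Zfp125 cells. Zfp125 replicates 1 and 2 were above every EV array and replicate 3 was below all of them, and the change was 0.088 ± 0.093 (limma, adjusted p = 0.802). Junb, which activates more weakly than Jun and can oppose it, read 7.54, 7.68, 7.71 and 7.49 in EV cells and 7.48, 7.34, 7.47 and 7.39 in Zfp125 cells. The highest Zfp125 array lay just under the lowest EV array, and the change of -0.18 ± 0.09 did not pass (adjusted p = 0.483).

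Jund, the Jun gene that resting cells also express, has 2 clusters. The one with the higher mean read 7.44, 7.47, 7.21 and 7.48 in EV cells and 7.25, 7.36, 7.15 and 7.11 in Zfp125 cells, with EV replicate 3 inside the Zfp125 range. Its change was -0.18 ± 0.10 (limma, adjusted p = 0.525). The other read 6.81, 6.88, 6.62 and 7.01 in EV cells and 6.41, 6.83, 6.71 and 6.47 in Zfp125 cells, with a change of -0.23 ± 0.13 (limma over all clusters, adjusted p = 0.627). In both clusters EV replicate 3 was the lowest EV array.

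Egr1 is a zinc finger factor of the same early response that binds GC-rich sites and does not pair with Fos or Jun. It read 7.39, 7.40, 7.20 and 7.38 in EV cells and 6.87, 7.03, 6.78 and 7.20 in Zfp125 cells. All 4 Zfp125 arrays were below the EV arrays, though Zfp125 replicate 4 and EV replicate 3 differed by less than 0.01. The mean was 7.35 ± 0.09 in EV cells and 6.97 ± 0.19 in Zfp125 cells, a 1.30-fold lower level. The change of -0.38 ± 0.11 did not pass the test (limma, adjusted p = 0.145), with a 95% interval of -0.60 to -0.15 that is not adjusted for the number of genes. With a trended, robust prior it passed (adjusted p = 0.0356), and in the fits that left out 1 array the adjusted p lay between 0.0813 and 0.35.

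Atf3 encodes a bZIP repressor that can pair with Jun and is induced by stress in hepatocytes. It read 5.22, 5.16, 5.19 and 5.01 in EV cells and 5.48, 5.27, 5.40 and 5.40 in Zfp125 cells. All 4 Zfp125 arrays were above the EV arrays, with means of 5.14 ± 0.10 and 5.39 ± 0.08, and the change of 0.25 ± 0.09 did not pass (limma, adjusted p = 0.306). Ier3, an early gene tied to cell survival that encodes a short-lived membrane protein, read 6.30, 6.47, 5.998 and 6.17 in EV cells and 6.22, 6.33, 6.05 and 6.43 in Zfp125 cells. The groups overlapped over most of their range, and the change was 0.021 ± 0.117 (adjusted p = 0.976).

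The 95% intervals of the 9 members with their own cluster describe the measured signal. The lowest bound was that of Egr1, a 1.52-fold lower level, and the highest was that of Atf3, a 1.36-fold higher level. Changes of 2-fold in either direction lie outside all 9 intervals. The interval of Fosb was the narrowest, from -0.21 to 0.16. Fos, Fosb and Atf3 had EV means of 4.93, 4.92 and 5.14, where the median of all clusters was 4.34. No background level was used, and for a probe near background an interval does not limit the change of the mRNA itself.

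**Figure D3:**
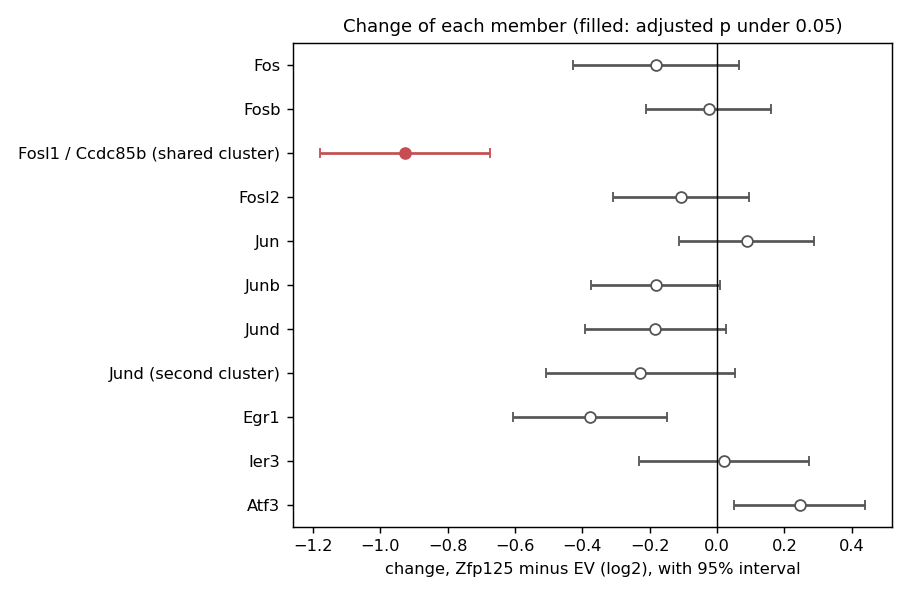
Change of each member cluster, Zfp125 minus EV, on the log2 scale with its 95% interval from limma, not adjusted for the number of genes. The shared cluster, filled, lies at -0.93, and the other clusters lie between -0.38 (Egr1) and 0.25 (Atf3).

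Whether relatives changed unequally was examined through the within-array difference of their clusters, for 6 pairs of Fos family members and 3 of Jun family members. Fosl1 stands here for the shared cluster. The difference of Fosl1 minus Fosl2 was 0.61 ± 0.18 in EV cells and -0.21 ± 0.19 in Zfp125 cells, a shift of -0.82. Fos minus Fosl1 shifted by 0.75 and Fosb minus Fosl1 by 0.90. Jun minus Jund went from -0.44 ± 0.10 to -0.17 ± 0.08, a shift of 0.27. In these 4 pairs the groups did not overlap (exact two-sided permutation test, p = 0.0286 each), but adjusted over the 9 pairs the p was 0.0643, so none passed. With 9 pairs, at least 6 at the smallest p would be needed to pass. The 3 pairs with Fosl1 all hold the same shared cluster, whose groups did not overlap by themselves. They restate its fall and are not separate results. Jun minus Junb shifted by 0.27 with overlapping groups (exact permutation test, p = 0.0857, adjusted p = 0.154), and the remaining 4 pairs had an exact p of 0.314 to 1.

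Of 35 other immediate early genes, all measured, 1 fell and 1 rose, with a median change of -0.067 and 9 genes at an unadjusted p under 0.05. Over all genes the shares were 1.08% called and 10.9% at an unadjusted p under 0.05, and the same shares apply to the other lists. All lists were chosen with earlier results of these data known, so their counts are descriptions only. Dusp1, the phosphatase that switches off MAP kinases in the nucleus, read 7.96, 7.68, 7.87 and 8.01 in EV cells and 6.79, 6.98, 6.65 and 6.97 in Zfp125 cells. No Zfp125 array came near the EV range, and the gene fell by 1.03 ± 0.11, a 2.04-fold lower level (limma, adjusted p = 3.51e-04). The call held in all 8 omissions of 1 array and ended only without variance moderation (adjusted p = 0.0539). Ccn2, a secreted matrix protein also known as connective tissue growth factor, read 8.86, 8.85, 8.65 and 8.52 in EV cells and 9.09, 9.15, 9.19 and 9.28 in Zfp125 cells. It rose by 0.46 ± 0.10 (adjusted p = 0.0475), a call that ended in all 8 omissions of 1 array (adjusted p of 0.0567 to 0.135), with the mean of its clusters (0.217), with quantile normalization again (0.0559) and with median centring (0.0532).

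**Figure D4:**
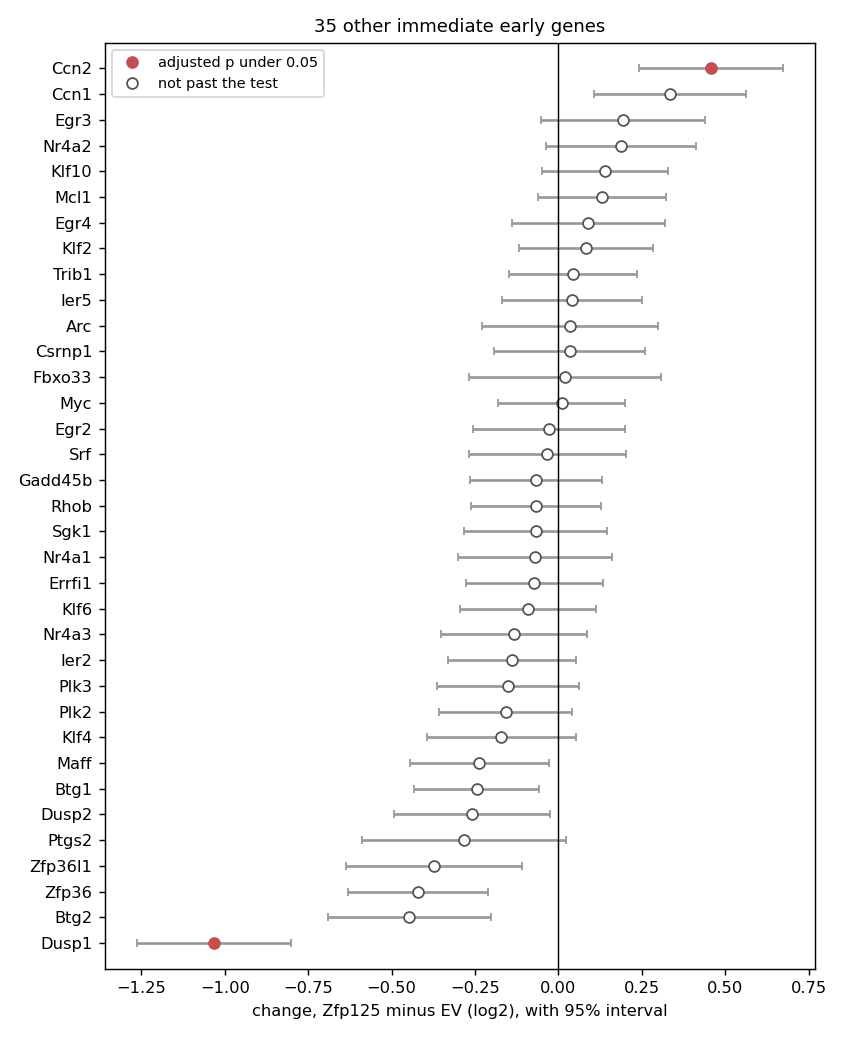
Change of 35 immediate early genes outside the members, Zfp125 minus EV on the log2 scale with unadjusted 95% intervals, sorted by size. Dusp1 at -1.03 and Ccn2 at 0.46 are filled as past the test, and 33 genes are open.

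A further list held bZIP proteins that can share partners with Fos and Jun. Of 21 measured of 23 listed, 1 fell and 0 rose, 5 had an unadjusted p under 0.05, and the median change was 0.014. Atf5, a stress-responsive factor of the integrated stress response, read 7.40, 7.33, 7.38 and 7.63 in EV cells and 6.93, 7.01, 6.96 and 7.09 in Zfp125 cells. The groups did not overlap and it fell by 0.44 ± 0.09 (limma, adjusted p = 0.0433), a call that ended in all 8 omissions of 1 array (adjusted p of 0.0598 to 0.137). Atf7, an ATF2 relative and a target of stress kinases, had a change of 0.29 ± 0.08 (adjusted p = 0.151), with all Zfp125 arrays above all EV arrays, and passed with a trended, robust prior (0.0368).

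Among kinases, growth factor signalling proteins and serum response factors upstream of these genes, 23 of 30 listed were measured and 0 changed by limma over all genes, with 2 at an unadjusted p under 0.05. The median change was 9.48e-04. Those 2 were Mapk9, the stress kinase JNK2 that phosphorylates Jun, with a change of -0.21 ± 0.09 (limma, adjusted p = 0.37), and Mapk7, the kinase ERK5, with 0.22 ± 0.09 (adjusted p = 0.384). The other 7 are not analysed here.

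Of 25 genes reported as AP-1 targets, 23 were measured, 1 fell and 1 rose (1.08% of all genes were called), 6 had an unadjusted p under 0.05 (10.9% of all genes), and the median change was -0.037. Cyclin D1, Ccnd1, which drives entry into S phase, read 9.79, 9.68, 9.61 and 9.30 in EV cells and 8.78, 8.83, 8.96 and 9.21 in Zfp125 cells. It fell by 0.65 ± 0.12 (limma, adjusted p = 0.0256). Itga5, the fibronectin receptor's alpha chain, read 6.43, 6.52, 6.57 and 6.52 in EV cells and 6.79, 6.98, 7.0 and 7.16 in Zfp125 cells, and it rose by 0.47 ± 0.10 (adjusted p = 0.0349). The groups did not overlap for either gene. Leaving out 1 array ended the call of Ccnd1 in 6 and that of Itga5 in 7 of 8 cases (adjusted p up to 0.0959 and 0.104).

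The genes whose profiles over the 8 arrays lay nearest to the shared cluster were Ctsc, Nupr1 and Pcsk6. Likeness was the root mean square distance between log2 profiles, each centred on its own mean, and it was 0.096 for Ctsc, 0.13 for Nupr1 and 0.14 for Pcsk6, where the shared cluster itself spans 1.27 between its lowest and highest array. Ctsc encodes the lysosomal protease cathepsin C, Nupr1 a stress-induced chromatin protein and Pcsk6 a proprotein convertase. Their changes were -0.91 ± 0.11, -0.96 ± 0.10 and -0.72 ± 0.10 (limma, adjusted p of 2.98e-04 to 0.00241). A gene chosen for a profile near one that fell will itself have fallen, so these values only describe the choice. For Egr1, added after seeing the data, the nearest were Krtap12-1 at 0.052, Acot3 at 0.072 and Lmo4 at 0.075, with changes of -0.37 ± 0.11, -0.32 ± 0.10 and -0.44 ± 0.10, none past the test.

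The 8 arrays had medians of 4.32 to 4.37 and pairwise correlations of 0.977 to 0.984 over all clusters, and none stood apart. Over all genes 240 changed, 99 higher and 141 lower in Zfp125 cells. No cluster is annotated to Zfp125, which is not analysed here, and the group labels therefore have no check on the expressed gene. Of 6 measured hepatocyte markers, with EV means of 8.71 to 13.0, 3 fell (Alb, Serpina1c and Apoa1) and 0 rose. Of the other 3, Hnf4a had a change of -0.38 (limma, adjusted p = 0.0562). Apob, at -0.068, and Ttr, at 0.079, had overlapping groups. Summed over the 6, the log2 values ran from 62.5 to 63.9 in EV cells and from 60.7 to 61.6 in Zfp125 cells. The part of this in the members' values was not tested. Of 6 macrophage, 7 stellate cell and fibroblast, 6 endothelial and 4 biliary markers 0 changed by limma, with 0, 1, 0 and 1 at an unadjusted p under 0.05. Their median EV levels were 4.66, 4.46, 4.44 and 7.25, so the first 3 lists lie near the median of all clusters, 4.34, where a change may not be measurable. The lists' summed log2 values overlapped between EV and Zfp125 cells in each of the 4 lists. These are bulk samples, in which fewer cells that express a gene and less RNA per cell cannot be told apart.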

How the data were processed

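The authors deposited log2 expression values, 1 per transcript cluster and array, for 8 arrays; that the scale is log2 was read from the values. The software was Affymetrix Expression Console with Transcriptome Analysis Console, per the submitters' processing notes; its versions, background correction and normalization: not given in the sources used here. Values were used as deposited. Single-symbol clusters were named through the platform annotation, updated by Entrez identifier to the GRCm38.p6 RefSeq table (23328 of 23521 matched), and the cluster with the highest mean stood for a gene, leaving 22180 genes. Tests used limma 3.58.1 (R 4.3.3; functions lmFit and eBayes; Benjamini-Hochberg adjustment, two-sided), checked on simulated data. Of simulated log2 changes of 0.5, 62.7% were recovered, and of those of 1 and of 2, 100%. Smaller changes, such as those of the members with a cluster of their own, were not simulated. Clusters beyond these, among them the shared Ccdc85b and Fosl1 cluster, were taken from the same fit over all 41345 clusters. Precision is limited by the number of arrays. The members and lists were chosen with earlier results of these data known. Named are all members, changed genes and the 2 smallest p of each list, and the 3 nearest profiles. The neighbours of Fosl1, the comparison with Ccdc85b's own cluster and the profiles near Egr1 were chosen after seeing the data. Alternatives covered normalization, filters, moderation, array weights, cluster choice, the replicate block and leaving out each array. Plots used matplotlib 3.10.9.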

Additional observations from a re-analysis of the deposited data

Results flagged for a closer look

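In 38 groups of 4 arrays examined, 2 held an array far from the other 3 by Dixon's criterion. Chance flags about 1 in 20, and the count of 2 is near that share. Egr1 in EV replicate 3 was 7.20, with the other EV arrays at 7.38 to 7.405. Jund in EV replicate 3 was 7.21 in its cluster of higher mean, with the others at 7.44 to 7.48. Both values come from the same array, and without it the change of Egr1 was -0.42 and that of Jund was -0.25, neither past the test.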

How the results depend on the processing

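The count of changed genes was 405 among clusters above the median level, 26 without variance moderation, 498 with a trended, robust prior and 61 over all clusters of the table; leaving out 1 array gave 109 to 187, lowest without Zfp125 replicate 1. The count of member genes changed stayed at 0 except with the trended, robust prior, where it was 1, Egr1. The median member change ran from -0.16 to -0.070 on leaving out 1 array. The change of the shared cluster kept its direction, at -0.999 to -0.847 on leaving out 1 array, and at -0.93 without variance moderation, where the call ended. Replicate numbers are shared by the groups, and the labels do not tell whether same-numbered arrays were handled together. Over all genes same-numbered arrays did not deviate together (correlations of -0.05 to 0.04), which cannot settle this for single genes. With the replicate as a block 152 genes were called. The shared cluster, at -0.93, then lost its call (limma, adjusted p = 0.15), while among clusters with a symbol it kept it (0.00336). The shift of Junb minus Jund, 7.93e-04, turned to -0.00269 with quantile normalization again and ran from -0.060 to 0.098 on leaving out 1 array. The changes of Ier3 (-0.058 to 0.099) and Fosb (-0.052 to 0.00130) also turned sign in 4 and 1 of the 8 omissions, and no other member's did. Without changing sign, uncalled changes moved by over 1.5 times on leaving out 1 array for Fos (-0.24 to -0.098), Jun (0.041 to 0.14), Fosl2 (-0.17 to -0.070) and Ccdc85b's own cluster (-0.18 to -0.0058). The calls of Ccn2, Atf5, Ccnd1 and Itga5 also ended without variance moderation (adjusted p of 0.118 to 0.187), over all clusters of the table (0.128 to 0.16) and with the replicate block (0.0616 to 0.117). Signal over background was not used.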
